A study of Mus musculus with 8 samples.

Results

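ADAM and ADAMTS genes encode zinc metalloprotease families, in which some ADAMs lack a working catalytic site. They were taken here as every array probe set whose only annotated gene symbol is Adam or Adamts followed by a digit. The rule gave 74 of the 45101 probe sets on the array, for 43 genes: 28 ADAM and 15 ADAMTS. Another 5 probe sets name a member together with a second gene and were left out. RNA came from the epididymal fat, the visceral pad beside the testis, of 8 male C57BL/6J mice, with 1 array per mouse and 2 mice in each of 4 groups. The chow group ate food with 10% of its calories from fat. The HFD group ate a high-fat diet with 30% of calories from fat and no drug. The HFD+Tel group received the same diet with telmisartan in drinking water, and the HFD+Can group the same diet with candesartan. The mice were bought at 6 weeks of age and fed for 24 weeks; the high-fat mice were then randomized, and each drug was given at about 3 mg/kg/day over another 5 weeks. Telmisartan and candesartan block the type 1 angiotensin II receptor. No group carries an engineered allele, and chow is the only group off the high-fat diet, so no group shows either drug on chow.

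ADAM proteins sit in the cell membrane. Many of those with a working catalytic site cut the outer part off other membrane proteins, a step called shedding. Shedding frees cytokines, growth factors and receptor ectodomains. ADAMTS proteins are secreted, carry thrombospondin repeats and cut proteoglycans, procollagens and other matrix proteins. ADAM17, also known as TACE, releases soluble TNF, and in fat both families are known for their part in inflammation and in the matrix around adipocytes. TIMP proteins inhibit many of these enzymes.

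The first sequences printed lie upstream of Adam8 and Adam17, the members that passed the test in HFD against chow, and the last lies upstream of the ADAMTS gene with the smallest p. Each is the stretch of 250 bases before the gene's start in the RefSeq promoter table, build GRCm38.p6, minus strand, read 5′ to 3′; capitals mark matches to the motifs searched. The table held 28 genes with an Adam or Adamts symbol of this form, which were not matched to the 43 genes on the array.
Adam8, chr7:139992563-139992812: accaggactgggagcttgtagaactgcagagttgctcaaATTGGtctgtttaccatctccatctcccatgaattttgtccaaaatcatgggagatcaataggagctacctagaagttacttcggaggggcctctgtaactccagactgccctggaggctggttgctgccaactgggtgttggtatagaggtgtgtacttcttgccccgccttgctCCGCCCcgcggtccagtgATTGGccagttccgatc
Adam17, chr12:21373633-21373882: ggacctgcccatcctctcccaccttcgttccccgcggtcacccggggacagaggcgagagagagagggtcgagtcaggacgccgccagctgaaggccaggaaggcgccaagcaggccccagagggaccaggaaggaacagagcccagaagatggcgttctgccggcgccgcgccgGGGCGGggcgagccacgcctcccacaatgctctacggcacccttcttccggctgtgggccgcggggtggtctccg
Adamts9, chr6:92943535-92943784: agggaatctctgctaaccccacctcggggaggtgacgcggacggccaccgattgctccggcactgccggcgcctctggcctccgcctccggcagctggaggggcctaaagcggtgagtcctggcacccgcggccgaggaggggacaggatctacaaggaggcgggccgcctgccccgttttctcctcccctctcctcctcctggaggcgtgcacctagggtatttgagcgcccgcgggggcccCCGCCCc

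Motifs were searched on both strands, and none of them lies inside another. The GC box (GGGCGG) matched 1 time upstream of each of Adam8, Adam17 and Adamts9, and in 32.7% of the 32851 stretches of this length in the table. The CCAAT box (CCAAT) matched 2 times upstream of Adam8, against 33.8% of stretches with a match. The TATA box (TATAAA, 12.4% of stretches), the AP-1 site (TGANTCA, 6.75%) and the PU.1 site (GAGGAAGT, 2.44%) had 0 matches upstream of these genes. A match is a run of letters and not a measured binding site.

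Values are linear signals per probe set, scaled so that all arrays have the same 2%-trimmed mean, and are comparable between arrays for 1 probe set but not between probe sets. Probe sets were kept for testing when their mean log2 signal reached the median of all probe sets (a signal of 40.45), and each gene was represented by its brightest probe set with a single symbol. This left 11232 genes. Of the members, 33 probe sets and 19 genes passed (11 ADAM and 8 ADAMTS), and 24 genes did not. The trimmed mean as deposited was 178 to 265 over the arrays, and the number of arrays limits the precision. Of the markers of fat cells, 8 of the 8 with a probe set passed the filter, so the labelled tissue carried its markers. Of 11 testis and epididymis markers, 0 passed, with summed signals between 92.8 and 232 on every array. The median distance between the 2 arrays of a group, over the 19 members, was 0.28 on the log2 scale for chow, 0.14 for HFD, 0.39 for HFD+Tel and 0.31 for HFD+Can. Over all genes it was smaller in each group, at 0.22, 0.13, 0.27 and 0.15 in the same order.

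**Figure D1:**
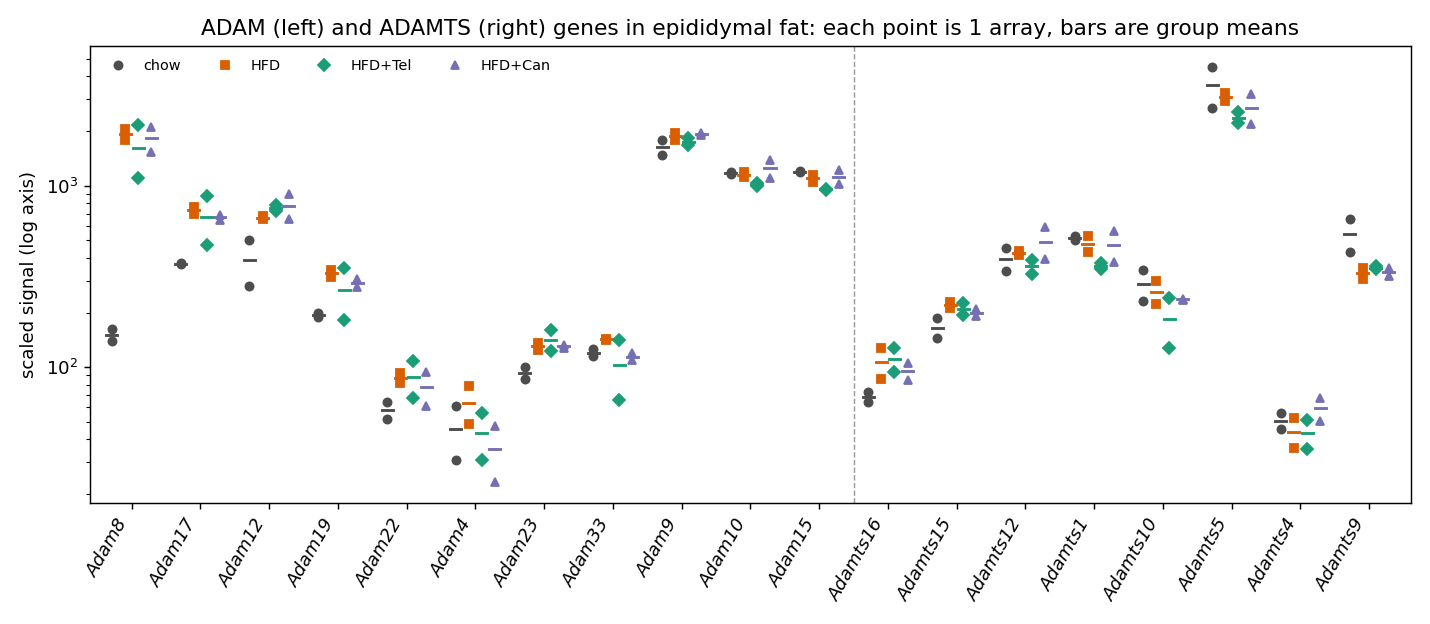
Scaled signal (log axis) of the 19 tested members, ADAM genes left of the dashed line and ADAMTS genes right of it; each point is 1 array and each bar the mean of 2. Adam8 lay at 139.9 and 161 on chow and between 1097 and 2145 on the 6 high-fat arrays, while most other members lay close together in all groups.

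HFD against chow is the effect of the diet without a drug. Adam8, a membrane protease of macrophages and other leukocytes, rose 12.7-fold, and Adam17, the TNF sheddase, rose 1.97-fold. No ADAMTS gene passed the test. limma called 2 of the 19 members higher and 0 lower, where 5.15% of all genes tested were called higher and 2.95% lower (8.09% in all). The median log2 difference of the 19 members was 0.25, against −0.01 over all genes. At an unadjusted p under 0.05 there were 7 of the 19, against 24.1% of all genes. The 2 arrays of each group did not overlap for 11 of the 19 members (57.9%), 9 above and 2 below chow, and for 58.1% of all genes, 27.8% above and 30.3% below.

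Among the sheddases, Adam8 had a signal of 139.9 and 161 on the chow arrays and of 1784 and 2047 on the HFD arrays, so the groups were far apart. The group means were 151 ± 15.1 and 1916 ± 186 (SD, n = 2 each). Adam8 has 1 probe set past the filter, so its values could not be set beside those of another. Its log2 difference was 3.67 (95% CI 3.00 to 4.33, limma adjusted p 0.000728), and its p ranked 12 among the 11232 genes. It kept its call in all 21 alternative analyses, with log2 differences of 3.53 to 3.77 and adjusted p of 2.9e-06 to 0.0383.

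Adam17 had a signal of 374 and 368 on chow and of 701 and 764 on HFD, again without overlap. The means were 371 ± 4.30 and 732 ± 44.7 (SD, n = 2 each). Its log2 difference of 0.98 (95% CI 0.41 to 1.55) lay just inside the threshold, at a limma adjusted p of 0.0491. The size hardly moved between analyses (0.86 to 1.04), but the call was lost in 9 of 21. It was lost without either chow array, either HFD array or either HFD+Can array, where a group kept 1 array. It was also lost without a filter (limma adjusted p 0.180), without the intensity trend (0.0821) and with probe sets tested singly (0.0567). Over all genes, 174 were called without a filter and 638 without the intensity trend, against 909 in the main fit. Adam17 has 3 probe sets past the filter, with log2 differences of 0.98, 0.89 and 0.94. The latter 2 passed when all probe sets were tested singly (adjusted p 0.0321 and 0.0244).

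Adam12 and Adam19, known from mesenchymal cells and, for Adam12, from early fat cell development, lay higher on HFD without passing. Adam12, also called meltrin alpha, had signals of 501 and 279 on chow and of 682 and 652 on HFD, so the chow arrays were the ones that stood apart. Its log2 difference was 0.83 (95% CI 0.24 to 1.43, adjusted p 0.0931). Without chow array 1 it was 1.25 and passed (adjusted p 0.01998), and without chow array 2 it was 0.41 (adjusted p 0.269). Over the alternatives the highest adjusted p was 0.329. A second Adam12 probe set spread more on chow, at 224 and 66.0, against 286 and 297 on HFD. Adam19, or meltrin beta, had signals of 199 and 189 on chow and of 314 and 342 on HFD. Its log2 difference was 0.76 (95% CI 0.15 to 1.37, adjusted p 0.127). It passed with only these groups in the fit (limma adjusted p 0.0237), where 1189 of all genes were called, against 909 in the main fit. Leaving out an HFD+Tel array changed only the estimated spread and not the difference of 0.76.

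The broadly expressed sheddases lay near their chow level. Adam10, the main sheddase of Notch receptors, had signals of 1159 and 1195 on chow and of 1182 and 1116 on HFD, with overlap (log2 difference −0.04, 95% CI −0.36 to 0.28, adjusted p 0.912). Its other probe sets lay at 0.18 and 0.43. Adam9 had 1481 and 1795 against 1950 and 1782 (0.19, 95% CI −0.11 to 0.50, adjusted p 0.422). Adam15 had 1190.2 and 1199 against 1146 and 1053 (−0.12, 95% CI −0.43 to 0.18, adjusted p 0.631); the name of this probe set ends in _x_at, the maker's mark for possible cross-hybridization, and its 3 other probe sets also lay below 0, down to −0.37. Adam33 had 116 and 125 against 142 and 144 (0.25, adjusted p 0.689). Another Adam33 probe set, below the filter, went the other way, with 45.1 and 46.3 on chow and 28.0 and 37.0 on HFD (−0.51). Over the 8 tested sheddases of 9, the median was 0.50, against −0.01 over all genes. Of them 2 were called higher and 0 lower, where 5.15% and 2.95% of all genes were.

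The ADAMs without a working catalytic site, adhesion and synaptic proteins, were dim. Adam23 had signals of 85.8 and 99.9 on chow and of 137 and 124 on HFD (log2 difference 0.49, adjusted p 0.185). Adam22 had 51.5 and 64.4 against 82.3 and 92.5 (0.60, adjusted p 0.298). Both lay higher on both HFD arrays, and neither passed. Another Adam23 probe set past the filter overlapped, with 109 and 83.9 on chow and 126 and 97.9 on HFD (0.22). Adam11 was below the filter.

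Of the 16 germ-line and epididymal ADAMs on the array, 1 was tested. Adam4 had signals of 30.7 and 60.9 on chow and of 48.8 and 78.6 on HFD, with overlap (log2 difference 0.52, 95% CI −0.67 to 1.71, adjusted p 0.596). The 17 probe sets of the others gave signals of 0.21 to 30.1 on any array, among them Adam2 and Adam3, which sperm need to bind the egg coat, and Adam7, a gene of the epididymis.

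**Figure D2:**
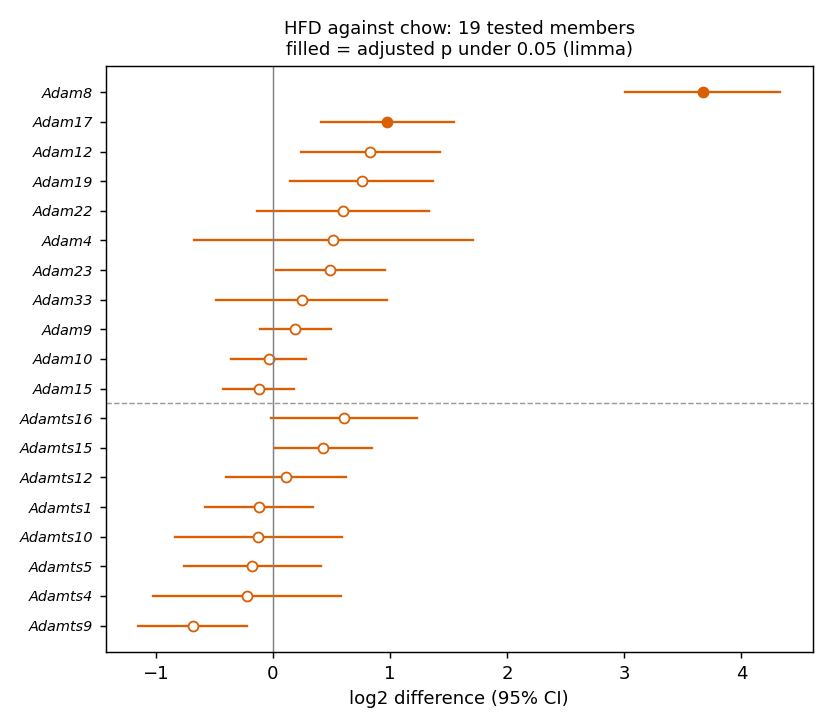
Log2 difference of HFD minus chow for the 19 tested members, with 95% confidence intervals from limma; filled circles have an adjusted p under 0.05. Adam8 (3.67) and Adam17 (0.98) are filled, and Adamts9 (−0.69) is the lowest of the members.

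Among the proteoglycanases, ADAMTS enzymes that cut versican and aggrecan, Adamts9 had the lowest value. Its signals were 654 and 429 on chow and 353 and 307 on HFD, so both HFD arrays lay below chow, but the chow arrays also lay apart. The log2 difference was −0.69 (95% CI −1.15 to −0.22, adjusted p 0.0794). It passed without chow array 2 (−0.99, adjusted p 0.0234) and was −0.38 without chow array 1, with a range of adjusted p over the alternatives of 0.0234 to 0.385. Its other probe sets lay at −0.44 and −0.36.

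Adamts5, the main aggrecanase of mouse cartilage, had signals of 2661 and 4521 on chow and of 3250.3 and 2909 on HFD. The chow arrays lay on both sides of the HFD arrays (log2 difference −0.17, 95% CI −0.75 to 0.41, adjusted p 0.728), and 1 of its other probe sets lay at 0.10. Adamts1 had 500 and 529 against 429 and 526 (−0.11, adjusted p 0.779). Adamts15 had 186 and 144 against 228 and 213, without overlap (0.43, 95% CI 0.02 to 0.84, adjusted p 0.193). Adamts4 was dim, at 55.8 and 45.8 against 52.6 and 35.8 (−0.22, adjusted p 0.752). Of the 7 proteoglycanases on the array, 5 were tested, with a median of −0.17.

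The other ADAMTS members showed values on both sides of 0. Adamts16 had signals of 73.1 and 64.1 on chow and of 86.0 and 127 on HFD (log2 difference 0.61, adjusted p 0.216). Adamts12, a protease of cartilage matrix protein COMP, had 453 and 339.5 against 414 and 435 (0.11, adjusted p 0.805), with a sign that turned under another scaling. Adamts10, which acts on fibrillin microfibrils, had 231 and 341 against 222 and 299 (−0.12, adjusted p 0.856). Adamts7, a protease known from vascular smooth muscle, was not tested but exceeded the median of an array on chow array 1, at 46.6 against 13.9 to 32.0 on the others. The procollagen N-propeptidase Adamts3 was below the filter, with signals of up to 37.7. Of the 8 tested ADAMTS genes 0 passed in either direction, at a median of −0.12, and 2 had an unadjusted p under 0.05.

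**Figure D3:**
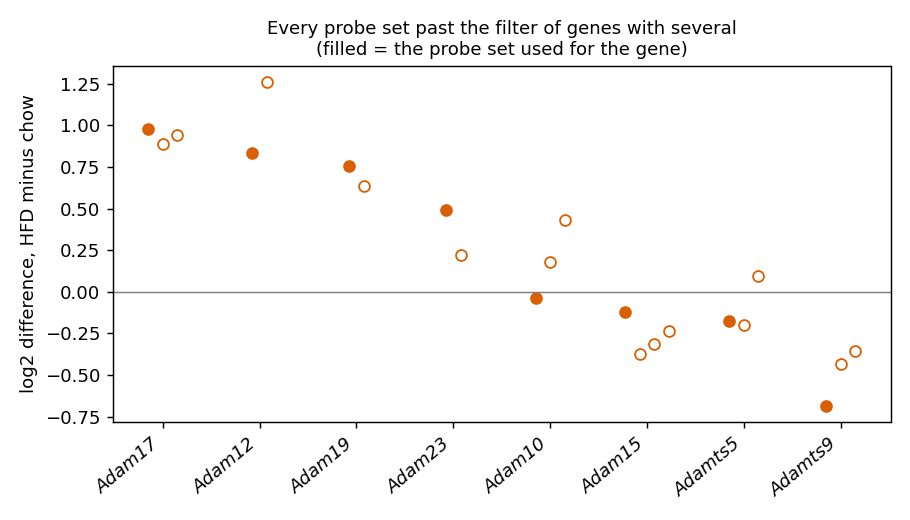
Log2 difference of HFD minus chow for every probe set past the filter of the 8 members that have several, with the probe set used for the gene filled. The 3 probe sets of Adam17 lie within 0.89 to 0.98, and those of Adam10 and Adamts5 lie on both sides of 0.

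Across the 6 high-fat arrays, drug-treated or not, 6 of the 19 members lay above both chow arrays: Adam8, Adam12, Adam17, Adam23, Adamts15 and Adamts16. This was so for 14.8% of all genes. Each pattern is that of the probe set used for the gene. The other probe sets of Adam12 and Adam17 past the filter also lay above chow on all 6. Another Adam23 probe set past the filter overlapped, with 109 and 83.9 on chow and 97.9 to 137 on the high-fat arrays. An Adamts16 probe set below the filter overlapped too, with 35.4 and 49.7 against 29.3 to 47.1. Adamts9 lay below both chow arrays on all 6, as did 15.1% of all genes. Its probe set with an HFD minus chow difference of −0.36 also lay below chow on all 6. The probe set at −0.44 overlapped, with 346 and 216 on chow against 231 on telmisartan array 2 and 236 on candesartan array 2. The other 12 members overlapped.

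The markers of macrophages rose in the same comparison, 9 of 10 by the test, and their part in the protease values was not tested. Their summed signal was 19125 to 20727 on chow, 41938 to 43325 on HFD, 35564 to 51231 on HFD+Tel and 38956 to 45224 on HFD+Can, and 0 of the 10 lay at the floor. Of these, Adgre1, which encodes F4/80, rose by 2.04 on the log2 scale (adjusted p 0.00482) and Itgax, which encodes CD11c, by 3.10 (adjusted p 0.000755). In whole tissue, more cells of a type and more RNA per cell cannot be told apart. The mean log2 signal of these markers was 9.55 and 9.78 on chow and 11.07 to 11.79 on the high-fat arrays. Adam8 minus that mean was −2.42 and −2.45 on chow and −0.97 to −0.53 on the 6 high-fat arrays, so Adam8 differed by more than the markers' mean. Adam17 minus that mean was −1.003 and −1.26 on chow and −2.20 to −1.95 on the high-fat arrays, so Adam17 differed by less. Adam8 was the 1 member of 19 whose high-fat values lay above chow on this scale; 17 lay below and Adam12 overlapped. Of all genes, 0.623% lay above and 96.4% below, since the subtracted mean itself was higher on the high-fat arrays, so the 17 are near the background. These marker-subtracted differences were not tested.

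**Figure D4:**
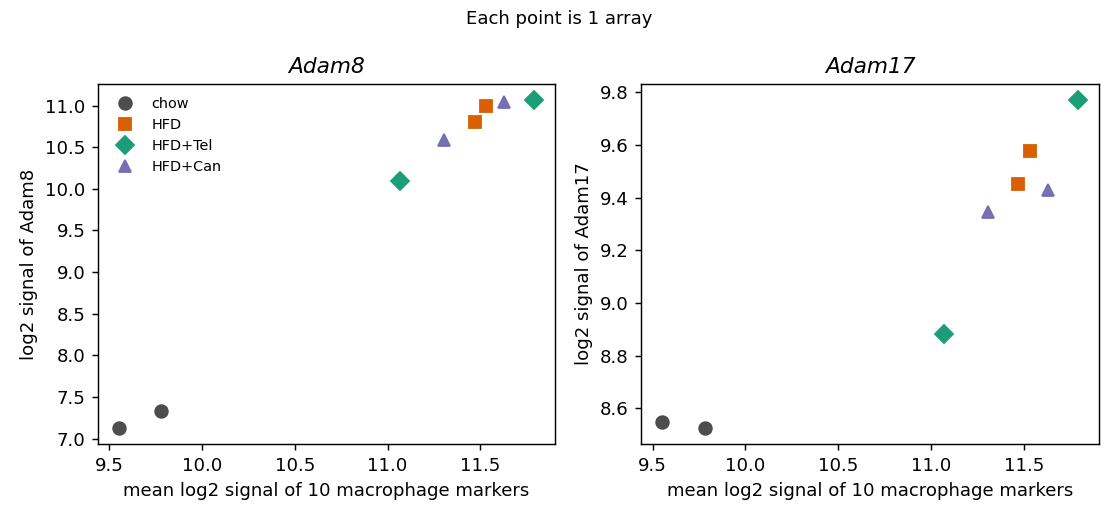
Log2 signal of Adam8 (left) and Adam17 (right) against the mean log2 signal of 10 macrophage markers, with 1 point per array. The chow arrays lie apart at 9.55 and 9.78 on the x axis, and among the high-fat arrays telmisartan array 1 is lowest and telmisartan array 2 highest on both axes.

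Of the neutrophil markers 3 of 8 were tested and 0 passed, with summed signals of 720 to 1406 on chow and 1436 to 1599 on HFD; Mpo, Ngp and Cxcr2 were below the filter. Of the B, T and NK cell markers 6 were tested and 0 passed (307 to 392 on chow, 592 to 965 on HFD). Of the endothelial markers 4 of 8 fell (6456 to 7424 on chow, 4436 to 5222 on HFD), and of 9 stromal markers 1 rose (24956 to 26066, against 30065 to 32762). Of 5 mast cell markers tested 1 rose, of 8 adipocyte markers 2 fell, and of 6 smooth muscle and 7 mesothelial markers 0 passed.

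The genes around these proteases are given by list for HFD against chow, and the lists share genes with the marker lists. By the same test 5.15% of all genes rose and 2.95% fell, at a median of −0.01, the background for both kinds of list. Csf1r, named below, is also a macrophage marker, and Lum is also the stromal marker that rose. Of 5 inhibitors tested of 8 listed, 1 rose and 0 fell, with a median of −0.33. Timp1 had signals of 182 and 144 on chow and of 771 and 812 on HFD (log2 difference 2.29, adjusted p 0.00115). Timp2 lay at 0.49 (adjusted p 0.0959), Timp3, an inhibitor of ADAM17 and of aggrecanases, at −0.33 (0.367), and Timp4 at −1.35 (0.292). The Timp4 signals were 1522 and 6931 on chow, with the HFD arrays at 1291 and 1265, below both. The membrane-anchored inhibitor Reck, named after its value was seen, lay at −0.64 (0.0730).

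Of 12 tested escorts of ADAM17 and ADAM10 and convertases that remove the inhibitory prodomain, 1 rose and 0 fell (median −0.04). Tspan33, a tetraspanin that binds ADAM10, had signals of 66.2 and 48.2 on chow and of 197 and 119 on HFD (log2 difference 1.44, adjusted p 0.0299). Rhbdf2 encodes iRhom2, which carries ADAM17 to the surface of leukocytes. It had 60.8 and 75.4 against 125 and 134 and did not pass (0.93, adjusted p 0.108). Its relative Rhbdf1 lay at −0.14 (0.532).

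Of 35 tested membrane proteins that ADAMs are known to shed, 5 rose and 3 fell (median −0.01, as over all genes). Trem2, a lipid receptor of macrophages, rose by 4.45 (adjusted p 0.000536), Cd44 by 1.64 (0.00450) and the TNF receptor Tnfrsf1b by 1.13 (0.00973). The others that rose were Cxcl16, a membrane-bound chemokine, and the receptor Csf1r, named after their values were seen. Notch4 fell by 0.80 (0.0175) and the scavenger receptor Cd163 by 1.68 (0.0204). Notch1 fell by 0.58 (0.0400), also named after its value was seen. Tnf was not tested.

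Of 16 tested proteoglycan and matrix substrates of ADAMTS enzymes, 3 rose and 0 fell (median 0.35): Comp by 2.76 (adjusted p 0.0204), Lum by 1.21 (0.00680) and Tfpi2 by 0.96 (0.0297). Vcan, which encodes versican, had signals of 422 and 353 on chow and of 273 and 291 on HFD and did not pass (−0.45, adjusted p 0.147). Of 9 procollagen and procollagen-processing genes, Col1a1 rose by 0.76 (0.0491) and Col5a3 fell by 0.87 (0.0255). Of 5 tested ADAMTS-like genes, which lack the protease domain, 0 passed (median 0.04).

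The comparisons of each drug with HFD ask whether a blocker changed the protease genes of obese fat. With telmisartan, limma called 0 of the 19 members and 0% of all 11232 genes; 0 members had an unadjusted p under 0.05, against 6.2% of all genes. Adam8 had signals of 1097 and 2145 with telmisartan, on both sides of the HFD arrays at 1784 and 2047. Its log2 difference was −0.32 (95% CI −0.98 to 0.35, adjusted p 0.814). It was 0.17 without telmisartan array 1 and −0.80 without array 2. Adam17 had 471 and 874 against 701 and 764 (−0.19, 95% CI −0.76 to 0.38, adjusted p 0.861), again on both sides. It was 0.26 without telmisartan array 1 and −0.63 without array 2.

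The members with the smallest p in telmisartan against HFD were Adamts1, Adam33 and Adamts10, and none of them passed. Adamts1, a versican-cleaving protease, had signals of 376 and 347 with telmisartan against 429 and 526, without overlap (log2 difference −0.40, 95% CI −0.86 to 0.07, adjusted p 0.766). Adam33 had 65.6 and 141 against 142 and 144 (−0.57, 95% CI −1.30 to 0.16, adjusted p 0.766). Adamts10 had 128 and 241 against 222 and 299 (−0.55, 95% CI −1.26 to 0.16, adjusted p 0.766). The low values of Adam33 and Adamts10 came from telmisartan array 1. That array lay below array 2 for 16 of the 19 members, where array 2 was the higher for 51.4% of all genes. Arrays did not overlap for 7 members, 1 above and 6 below HFD, against 37.9% of all genes, 18.5% above and 19.5% below. Of the stromal and progenitor markers, 8 of 9 also lay below HFD without overlap (median −0.32), with summed signals of 25365 to 26864 against 30065 to 32762. The median was −1.13 for 7 mesothelial markers (summed signals of 731 and 2467, against 2425 to 3259) and −0.96 for 5 mast cell markers (495 and 1063, against 999.7 to 1709). The other tested marker lists had medians of 0.39 (neutrophil), 0.14 (adipocyte) and 0.09 (B, T and NK cell). For endothelial, smooth muscle and macrophage markers they were −0.03, −0.05 and −0.06. All 8 adipocyte markers lay above 0. limma called none of these markers, and their part in the members' values was not tested. The median over the members was −0.19, against −0.01 over all genes; with median centring it was 0.08 and that of all genes 0.26. Another scaling can move many genes the same way. The sign turned under another scaling for 12 of the 19 members, Adam17 among them, and for 68.1% of all genes.

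With candesartan, limma again called 0 of the 19 members and 0% of all genes, and 0 members had an unadjusted p under 0.05, against 1.25% of all genes. Adam8 had signals of 1537 and 2112 against 1784 and 2047 (log2 difference −0.08, 95% CI −0.75 to 0.58, adjusted p 1), and Adam17 650.5 and 689 against 701 and 764 (−0.13, 95% CI −0.70 to 0.44). The smallest p-values were those of Adam4 (−0.90, 95% CI −2.09 to 0.29), Adamts4 (0.43, −0.36 to 1.23) and Adam33 (−0.32, −1.06 to 0.41), each with an adjusted p of 1. The members' median was −0.08, against 0.00 over all genes, and 5 lay below HFD without overlap and 0 above, against 33.4% of all genes, 15.5% below and 17.9% above. The sign turned under another scaling for 7 of the 19 members, Adam8 and Adam17 among them, and for 35% of all genes.

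The drugs were compared with each other at the same dose and time, as the 1 pair of compounds. Telmisartan carries a carboxylic acid on its biphenyl group where candesartan carries a tetrazole. limma called 0 of the 19 members and 0% of all genes in telmisartan against candesartan, with 0 members at an unadjusted p under 0.05 against 4.9% of all genes. The interval of the difference was −0.90 to 0.43 for Adam8 and −0.63 to 0.51 for Adam17 on the log2 scale. The smallest p-values belonged to Adam10, Adamts12 and Adamts1. Adam10 had signals of 999 and 1033 with telmisartan and of 1104 and 1391 with candesartan (log2 difference −0.29, 95% CI −0.61 to 0.03, adjusted p 0.924). Adamts12 had 327 and 390.5 against 393 and 589 (−0.43, 95% CI −0.94 to 0.08, adjusted p 0.924). For Adamts1 the difference was −0.36 (95% CI −0.82 to 0.10, adjusted p 0.924). Arrays did not overlap for 5 members, all lower with telmisartan, against 32.2% of all genes, 15.6% above and 16.6% below. The sign turned under another scaling for 7 members, Adam17 among them, and for 58.5% of all genes. Intervals this wide do not show that the drugs act alike.

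**Figure D5:**
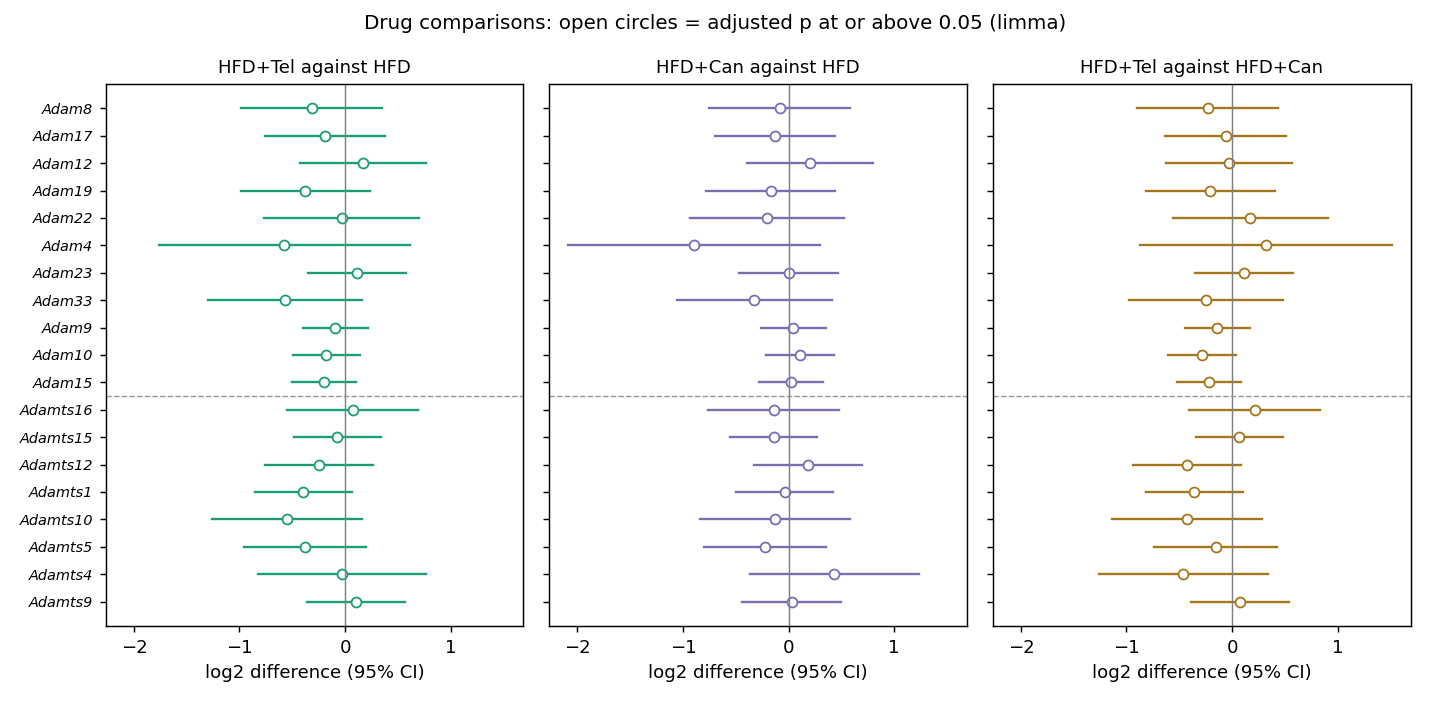
Log2 differences of the 19 tested members with 95% confidence intervals from limma, for telmisartan against HFD (left), candesartan against HFD (middle) and telmisartan against candesartan (right), dashed line between ADAM and ADAMTS genes. All circles are open, since no adjusted p was under 0.05, and every interval includes 0.

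Each drug group was also set against chow, the same chow arrays as in HFD against chow. Adam8 was the 1 member called in each. It rose by 3.35 with telmisartan (95% CI 2.69 to 4.02, adjusted p 0.000958), where 8.44% of all genes were called, 4.96% higher and 3.48% lower. It rose by 3.58 with candesartan (2.92 to 4.25, adjusted p 0.000796), where 6.59% were called, 4.48% higher and 2.11% lower. Its call held in all 21 alternatives of both comparisons. With telmisartan 8 of the 19 members had an unadjusted p under 0.05, against 24.7% of all genes, and 12 did not overlap chow (7 above, 5 below), against 47.6% of all genes, 22.4% above and 25.2% below. With candesartan 5 had such a p, against 21.3%, and 9 did not overlap chow (8 above, 1 below), against 53.7%, 25.8% above and 28% below.

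Adam12 came closest to the threshold with each drug. It lay at 1.01 with telmisartan (95% CI 0.41 to 1.602, adjusted p 0.0506) and at 1.04 with candesartan (0.44 to 1.63, adjusted p 0.0530), with signals of 722 and 781, and of 659 and 895, against 501 and 279. Among the alternatives the lowest and highest adjusted p were 0.0130 and 0.182 with telmisartan, and 0.0126 and 0.359 with candesartan. Without chow array 1 it lay at 1.43 and 1.46 and passed in both (0.0130 and 0.0126), and without chow array 2 it lay at 0.58 and 0.62 (0.162 and 0.143). Adam17 lay at 0.79 with telmisartan (adjusted p 0.0911) and at 0.85 with candesartan (0.0860), Adam23 at 0.60 (0.110) and 0.49 (0.211), and Adamts9 at −0.58 (0.121) and −0.66 (0.102). Without telmisartan array 1, Adam17 lay at 1.23 with telmisartan, and without array 2 at 0.34. The adjusted p of Adam17 ran from 0.00163 to 0.248 with telmisartan and from 0.00336 to 0.387 with candesartan; it passed without telmisartan array 1 (0.00163 and 0.00336), with median centring (0.0219 and 0.0342) and, for candesartan, also without telmisartan array 2 (0.00350) and with only the 2 groups in the fit (0.0142).

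The telmisartan comparison depended on the scaling. On signals as deposited, 1 member was called higher and 4 lower (Adamts1, Adamts5, Adamts9 and Adamts10) where the median of all genes was −0.38 and 326 genes were called higher and 1719 lower, against 557 and 391 with the scaling used. With median centring, 3 members were called higher and 0 lower, at 637 and 83 over all genes. For candesartan against chow, median centring gave 2 members higher, at 488 and 83 over all genes, against 503 and 237.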

How the data were processed

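Each of the 8 arrays is 1 mouse. The values deposited by the authors are linear signal intensities, 1 for each probe set, from the array maker's GeneChip Analysis Suite, per the series design text; its version, algorithm and scaling are not named in the labels. The table held 0 columns of other samples. Of the probe sets, 34958 have 1 gene symbol in the array annotation, 932 several and 9160 none; 64 controls were left out.

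All arrays were brought to 1 trimmed mean (2% off each end), values below 6.695 (the 20th percentile) were raised to it, and differences were taken on the log2 scale. Groups were compared with limma 3.58.1 in R 4.3.3: 4 group means over all 8 arrays, 4 residual degrees of freedom, intensity trend, two-sided tests, Benjamini-Hochberg adjustment over 11232 genes, called under 0.05. Python 3.11.15 and matplotlib 3.10.9 drew the figures.

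Every tested member was named; called members, and the 3 with the smallest p where fewer were called, got full values. Of each of 6 pathway lists, up to 5 called genes of smallest p were named, and always Timp1 to Timp4, Rhbdf1, Rhbdf2 and Vcan. Members, roles and lists, the 10 marker lists included, were chosen with earlier results of these data known.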

Additional observations from a re-analysis of the deposited data

How the results depend on the processing

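A total of 21 alternatives were run, 8 of them leaving out an array. No value past the threshold changed sign in any of them. Of the 84 recomputed values of members past the threshold, 9 lost it, all of Adam17 in HFD against chow; 31 values short of the threshold passed it. Of the 252 recomputed counts of called members, 26 moved by more than 1.5 times. Members called higher in HFD against chow numbered 1 without a filter and 1 without the intensity trend. Over all genes, 125 of 18193 and 430 of 11232 were called higher there, against 578 of 11232 in the main fit. In HFD+Tel against chow 3 were called higher with median centring, where 637 of all genes were, against 557 in the main fit. The members numbered 2 each without a filter (210 of 18193 genes) and with a filter at the 70th percentile (512 of 8098). They also numbered 2 each with robust moderation (558 of 11232) and with probe sets tested singly (731 of 19710 probe sets). When probe sets were tested singly, a gene counted when any probe set passed. Without scaling 4 were called lower, where 1719 of all genes were, against 391. In HFD+Can against chow 2 were called higher with median centring, with a filter at the 70th percentile and with only the 2 groups compared, and 1 to 4 when an array was left out; called lower, 0 to 1. Where an arm kept 1 array, it was assumed to vary like the others. No count moved with quantile normalization, with the floor lowered to the 5th percentile, with 16 added to each signal in its place, or with the mean of a gene's probe sets. In HFD against chow 6 of the 19 members, none of them called, changed sign in at least 1 alternative, as did 37.6% of all genes; against HFD, 14 did with telmisartan (74.2% of all genes) and 15 with candesartan (65.8%).

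The labels give no pairing of mice by replicate number. Differences between arrays 1 and 2 correlated between groups at −0.04 to 0.21, which cannot show whether arrays of 1 number shared a batch. With the replicate block the calls over all genes went from 909 to 1280 in HFD against chow, and 2 members were called higher in HFD+Tel against chow, the second being Adam12 (adjusted p 0.0495). Dim signals limit the 24 untested genes.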

Other observations

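Without a filter, Adam24, a germ-line ADAM, was called higher in HFD+Tel against chow (limma adjusted p 0.0431). Its signals were 0.399 and 2.33 on chow, below the floor of 6.695 and set to it, and 15.2 and 23.1 with telmisartan, so the size of the difference is set by the floor and is not given. All 8 arrays lay below the filter's signal of 40.45.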
